A study of Anoectochilus roxburghii with 9 samples.

Results

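The 71 genes described here are the most abundant transcripts of empty vector leaves of Anoectochilus roxburghii, a medicinal orchid. They were chosen by their level in these leaves: a mean over the 3 empty vector libraries of at least 1000 CPM, the count as a share of the library total on the usual per-million scale. They are 71 of the 85512 assembled genes in the deposited table, and all 71 were among the 27275 genes that had enough counts to be tested. The EV levels therefore chose the genes and are given as a description.

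Messenger RNA of leaves was sequenced 3 days after a transient overexpression treatment, in 3 libraries each for ArPHR2, ArPHR4 and the empty vector (EV). All 9 libraries were labelled WT in genotype. A deposited list of 9 sample names carries YFP, yellow fluorescent protein, in every name. Neither the promoter of the constructs nor their delivery into the leaf is stated in the labels. Whether replicate libraries stem from different plants is not stated, so their spread, and the p-values, may be technical. Library totals lay between 16032716 and 17244083 counts.

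PHR proteins bind DNA through a MYB domain and, in Arabidopsis and rice, switch on genes of phosphate uptake and saving when phosphate is scarce. In leaves of many plants a small number of genes, above all those of photosynthesis, supplies a large part of the messenger RNA. Sequencing measures shares of a library, so a transcript that takes more reads leaves fewer for the others. In whole leaves, fewer cells of a type and less RNA per cell cannot be told apart. The deposited files used here pair the assembly IDs with no gene name, description, position or sequence. The genes are therefore given by their rank in EV leaves, with IDs for those that moved most. For the same reason neither leaf marker genes nor the transcripts of the constructs could be checked.

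Together the 71 genes took a smaller part of the library in both overexpression groups than in EV. They held 14.2%, 14.01% and 14.7% of the counts in the ArPHR2 libraries, 12.9%, 12.8% and 12.8% in the ArPHR4 libraries, and 17.8%, 17.8% and 17.7% in the EV libraries. No library of one group overlapped with another group. The means were 14.3% ± 0.386 in ArPHR2, 12.8% ± 0.0515 in ArPHR4 and 17.8% ± 0.110 in EV (SD, n = 3 each). Because the genes were chosen as the highest in EV, a lower share elsewhere is partly built into the choice. The difference between ArPHR4 and ArPHR2, -1.46 percentage points, uses no EV library, though the EV libraries chose the genes.

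The same kind of share was taken for the genes highest in each other group. The 71 highest genes of ArPHR2 held 17.1% ± 0.350 of the ArPHR2 libraries and 16.1% ± 0.0838 of the EV libraries (SD, n = 3). Those of ArPHR4 held 15.98% ± 0.0587 of the ArPHR4 libraries, 16.3% ± 0.362 of the ArPHR2 libraries and 15.0% ± 0.0936 of the EV libraries. The highest genes of ArPHR4 thus took no larger share of ArPHR4 than of ArPHR2, and the gap between groups was widest for the EV genes. The genes needed to reach 50% of all counts numbered 1257 to 1318 in the ArPHR2 libraries, 1425 to 1443 in the ArPHR4 libraries and 1180 to 1202 in the EV libraries. The counts were therefore spread over the most genes in ArPHR4 and over the fewest in EV.

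**Figure D1:**
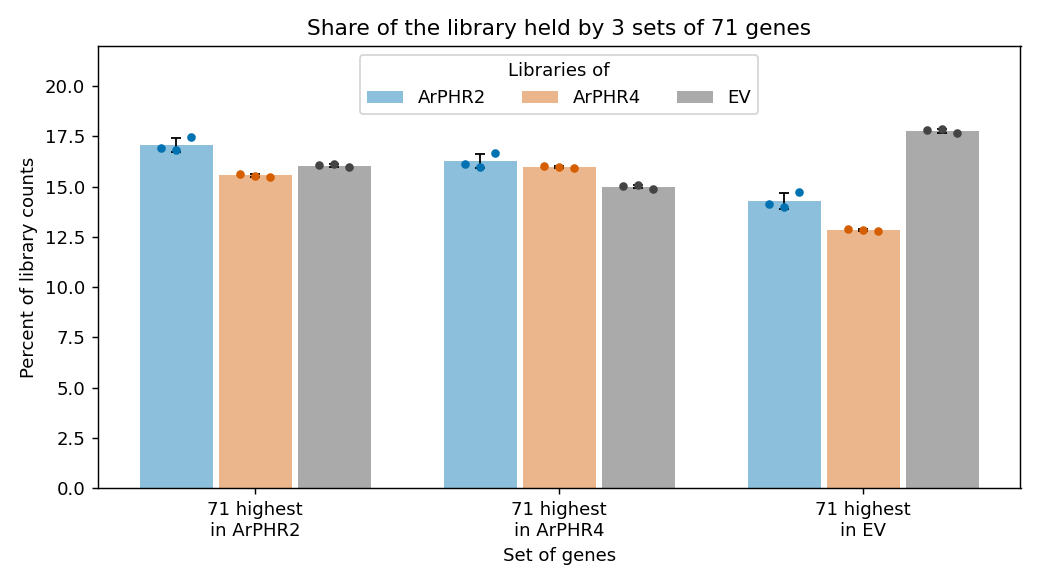
Percent of library counts (vertical axis) held by the 71 highest genes of ArPHR2, of ArPHR4 and of EV, with bars for the mean, error bars for the SD and points for the 3 libraries of each group. The 71 highest EV genes held 17.8% of the EV libraries, above 14.3% in ArPHR2 and 12.8% in ArPHR4, while the other sets differed less between groups.

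The 5 largest falls in CPM, all among EV ranks 1 to 10, made up over 30% of the summed fall. Against EV, 47 of the 71 had a lower mean CPM in ArPHR2 and together fell by 55173 CPM, while the other 24 gained 20368 CPM. In ArPHR4 54 genes fell by 69147 CPM and 17 gained 19779 CPM. The EV genes ranked 1, 2, 3, 8 and 10, picked as the largest falls in both groups, made up 39.1% of the summed fall in ArPHR2 and 33.6% in ArPHR4. The single gene ranked 15 made up 47.5% of the summed gain in ArPHR4.

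The most abundant EV transcript had 6665, 6630 and 6703 CPM in the ArPHR2 libraries, 7609, 7621 and 7154 CPM in the ArPHR4 libraries, and 15443, 15464 and 15048 CPM in the EV libraries. Every overexpression library lay far below every EV library, yet the gene still ranked 3 in both groups. Its log2 fold change was -1.27 ± 0.034 in ArPHR2 and -1.14 ± 0.034 in ArPHR4 against EV (SE, edgeR). It was 1 of 14 members that were higher in ArPHR4 than in ArPHR2, by 0.13 ± 0.033 on the log2 scale (edgeR adjusted p = 0.00225).

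Among the other genes of EV ranks 1 to 10, some stood far below their EV level and some close to it. EV rank 3 averaged 2121 ± 105 CPM in ArPHR2, 1892 ± 60.7 CPM in ArPHR4 and 6741 ± 212 CPM in EV (SD, n = 3). EV rank 8 averaged 1983 ± 40.2, 1355 ± 13.1 and 4868 ± 90.8 CPM in ArPHR2, ArPHR4 and EV. EV rank 10 averaged 1526 ± 82.0, 1154 ± 41.9 and 4354 ± 121 CPM in the same groups. These 3 genes stood at ranks 26, 29 and 45 in ArPHR2 and at ranks 23, 43 and 55 in ArPHR4. EV rank 2 kept a high place, rank 7 in ArPHR2 and rank 9 in ArPHR4, with 5207 ± 234, 3970 ± 216 and 7816 ± 256 CPM in ArPHR2, ArPHR4 and EV.

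Ranks 4, 5, 6 and 7 of EV were still among the 10 highest genes in both overexpression groups. EV rank 4 had 5594, 5664 and 5919 CPM in ArPHR2, 4744, 4878 and 4841 CPM in ArPHR4, and 5754, 5732 and 5639 CPM in EV. The ArPHR2 and EV libraries overlapped, and the ArPHR4 libraries lay below both. EV rank 7 averaged 5391 ± 164, 4475 ± 58.8 and 4949 ± 110 CPM in ArPHR2, ArPHR4 and EV, with ArPHR4 again lowest. Against ArPHR2, ArPHR4 was lower by -0.28 ± 0.034 for EV rank 4 (edgeR adjusted p = 4.99e-08) and by -0.30 ± 0.035 for EV rank 7 (edgeR adjusted p = 2.09e-08), both as log2 fold changes. EV rank 9 averaged 3331 ± 70.3, 1889 ± 26.8 and 4769 ± 136 CPM in ArPHR2, ArPHR4 and EV, and no libraries of these groups overlapped.

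**Figure D2:**
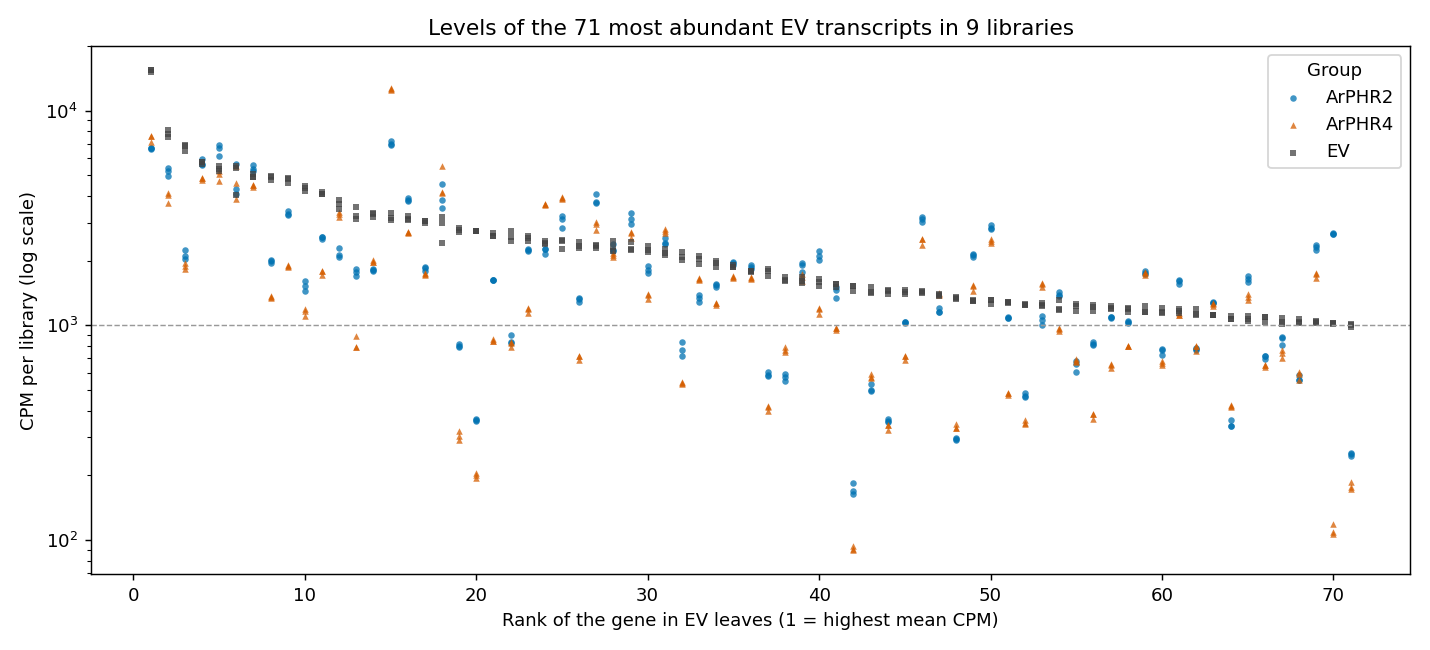
CPM on a log scale (vertical axis) of each of the 71 genes in every library, ordered by rank in EV (horizontal axis), with the 1000 CPM threshold as a dashed line. EV points fall along a narrow curve because rank was set on them, while ArPHR2 and ArPHR4 points scatter, up to 12586 CPM for EV rank 15 in ArPHR4 and down to 91.1 CPM for EV rank 42 in ArPHR4 (group means).

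The list was partly replaced at the top of the other libraries. Of the 71 genes, 51 still had a mean of at least 1000 CPM in ArPHR2 and 41 in ArPHR4. The lowest member stood at rank 941 in ArPHR2 and at rank 2429 in ArPHR4. In all, 13 members lay below rank 100 in ArPHR2 and 21 in ArPHR4. The median over members was 1642 CPM in ArPHR2, 1258 CPM in ArPHR4 and 1788 CPM in EV. Across the 71 genes, group means of ArPHR4 and ArPHR2 had a Spearman correlation of 0.89, against 0.58 for ArPHR2 and EV and 0.59 for ArPHR4 and EV. The range of levels in EV was cut by the choice of genes, and all groups share the same assembly, so these values only describe the list.

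Genes outside the list reached the same levels. In ArPHR2 23 other genes reached 1000 CPM and in ArPHR4 20, and 16 were common to these lists of 23 and 20. They held 4.23% of the counts in ArPHR2 and 1.58% in EV for the first list, and 3.88% in ArPHR4 and 1.33% in EV for the second. The first gene of ArPHR2 had 13492, 13977 and 13018 CPM there and 897, 916 and 930 CPM in EV, which put it at EV rank 80, just outside the list. It was the second gene of ArPHR4, at 10704 ± 285 CPM (SD, n = 3). One other newcomer was scarce in EV, at 20.2 ± 1.73 CPM and rank 8652, and reached 1376 ± 18.1 CPM in ArPHR2 and 1339 ± 15.0 CPM in ArPHR4; it was singled out after its values were seen.

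At the threshold itself the levels ran on without a gap. The members ranked 69, 70 and 71 averaged 1033 ± 13.8, 1022 ± 4.09 and 1000.04 ± 18.2 CPM in EV (SD, n = 3). The next genes, ranked 72, 73 and 74, averaged 995 ± 7.23, 994 ± 75.9 and 992 ± 24.4 CPM.

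Against EV, more members were called lower than higher under both constructs. These counts describe the list and support nothing, since the same EV libraries chose the genes and serve as the control of both comparisons. At an edgeR adjusted p under 0.05, 20 members were higher and 45 lower in ArPHR2, where 22.6% and 21.7% of all tested genes were called, or 44.3% in either direction. In ArPHR4 13 were higher and 54 lower, where 26.1% and 25.9% of all tested genes were called, or 52.0% in either direction. In plain CPM, all ArPHR2 libraries lay above all EV libraries for 23 members and below them for 44, against 30.3% and 22.4% of all tested genes. All ArPHR4 libraries lay above those of EV for 15 members and below them for 53, against 34.3% and 24.5%. At 2-fold or more, 5 were higher and 17 lower in ArPHR2, against 8.32% and 5.18% of all tested genes, and 1 was higher and 28 lower in ArPHR4, against 10.6% and 9.52%. The median log2 fold change of the members was -0.38 in ArPHR2 and -0.81 in ArPHR4, and that of all tested genes 0.01 in both.

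When 1 EV library alone chose the genes and was then left out of the fit, the split was nearly the same. The 3 libraries chose 70 to 73 genes, of which 45 to 47 were called lower and 18 to 21 higher in ArPHR2. In the same fits 17.9% to 18.3% of all tested genes were lower and 19.1% to 19.4% higher. In ArPHR4 53 to 55 were lower and 12 to 15 higher, against 22.2%, 22.3% and 22.6% of all tested genes lower and 22.2%, 22.4% and 22.6% higher. This removes the noise of the choosing library, not the choice of EV as the group. With genes chosen at 1000 CPM over all 9 libraries, 32 of 67 were higher and 28 lower in ArPHR2, and 27 higher and 36 lower in ArPHR4. Of the 74 genes at or above 1000 CPM in ArPHR2, 41 were higher and 25 lower there than in EV.

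Genes of the next abundance classes had similar shares of lower calls. Of 124 genes with an EV mean of 500 to under 1000 CPM, 55.6% were called lower in ArPHR2 and 70.2% in ArPHR4, against 63.4% and 76.1% of the members. Of 340 genes at 250 to under 500 CPM, 60.9% and 74.1% were lower. The difference between these classes and the members was not tested. The median log2 fold change of these classes in ArPHR4 was -0.37 and -0.40, against -0.81 for the members. In ArPHR2 it was -0.15 and -0.21, against -0.38. The classes were cut on the EV libraries that also serve as the control, so a lower median for the members is partly built into the choice.

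EV ranks 42 and 20 had the largest falls against EV in both overexpression groups. TRINITY_DN3336_c0_g2, at EV rank 42, had 170, 163 and 184 CPM in ArPHR2, 94, 89 and 90 CPM in ArPHR4, and 1516, 1517 and 1449 CPM in EV. That is a log2 fold change of -3.18 ± 0.046 in ArPHR2 and -4.13 ± 0.049 in ArPHR4 (SE, edgeR). TRINITY_DN2196_c0_g1, at EV rank 20, had 364, 360 and 363 CPM in ArPHR2, 201, 206 and 195 CPM in ArPHR4, and 2740, 2734 and 2752 CPM in EV. Its log2 fold changes were -2.99 ± 0.037 and -3.87 ± 0.038. For both genes the ArPHR4 libraries lay below those of ArPHR2, and these far below those of EV. In ArPHR4 the next largest fall was that of EV rank 70, at -3.30 ± 0.041, which had the largest rise of ArPHR2. In ArPHR2 the next largest fall was that of EV rank 48, at 294 ± 2.24 CPM there, 337 ± 7.18 CPM in ArPHR4 and 1341 ± 13.8 CPM in EV (SD, n = 3).

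EV rank 42 shares its assembly component with 1 other gene, and whether reads were exchanged between these IDs was not tested. The other gene had 199 CPM in ArPHR2, 245 CPM in ArPHR4 and 286 CPM in EV. The member held 46.4% of the component in ArPHR2, 27.1% in ArPHR4 and 83.9% in EV. On plain CPM the log2 ratio of ArPHR4 to EV was -4.04 for the member and -2.40 for the whole component. The log2 ratio of ArPHR4 to ArPHR2 was -0.92 for the member and only -0.14 for the whole component. In all, 23 of the 71 members (32.4%) had such a partner, against 39.0% of the tested genes. Summing the component changed the sign of none of their 3 ratios between groups.

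The largest rises among the members were smaller than the largest falls. This is partly built into the choice of genes high in EV, since the same EV libraries serve as the control. In ArPHR2 the largest was that of EV rank 70, at 1.32 ± 0.036 on the log2 scale, whose values in every library are given with the comparison of the constructs. TRINITY_DN5598_c0_g1, at EV rank 15, had 6898, 6976 and 7187 CPM in ArPHR2, 12562, 12781 and 12415 CPM in ArPHR4, and 3325, 3156 and 3082 CPM in EV. It was the first gene of ArPHR4 and the second of ArPHR2, with no overlap between groups. Its log2 fold change was 1.07 ± 0.036 in ArPHR2 and 1.88 ± 0.036 in ArPHR4 (SE, edgeR). TRINITY_DN4064_c2_g1, at EV rank 69, averaged 2306 ± 56.7 CPM in ArPHR2, 1712 ± 41.2 CPM in ArPHR4 and 1033 ± 13.8 CPM in EV (SD, n = 3). TRINITY_DN2691_c0_g1, at EV rank 50, averaged 2857 ± 67.0, 2472 ± 47.0 and 1293 ± 32.5 CPM in the same groups. EV rank 46 averaged 3109 ± 76.8, 2462 ± 92.2 and 1427 ± 18.3 CPM. The last 3 genes were each highest in ArPHR2 and lowest in EV.

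**Figure D3:**
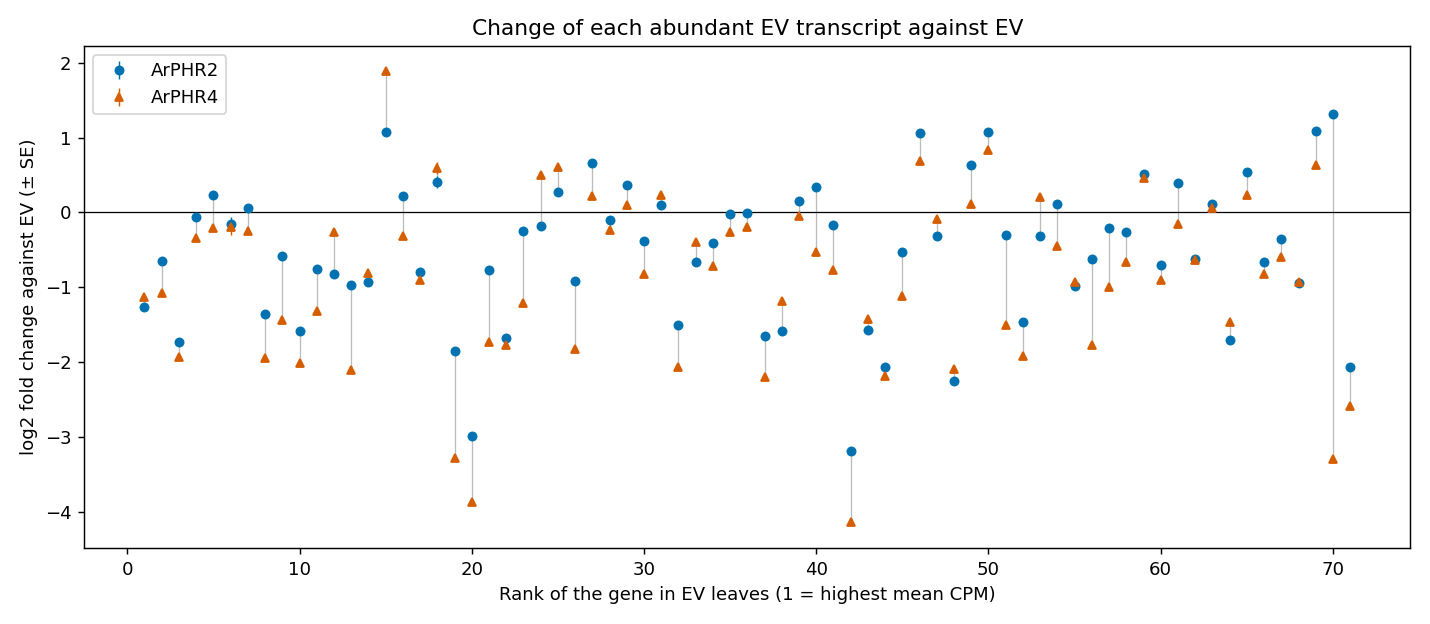
Log2 fold change against EV with its SE (vertical axis) of the 71 genes by EV rank (horizontal axis), with a circle for ArPHR2, a triangle for ArPHR4 and a line joining them. Most points lie below 0, and EV rank 70 has the longest line, with 1.32 in ArPHR2 and -3.30 in ArPHR4. Both comparisons use the same EV libraries.

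ArPHR4 and ArPHR2 leaves differed from each other in most of these genes, in a comparison of their own group means. The EV libraries still chose the genes and entered the filter, scaling and spread of the shared fit. Of the 71, 14 were higher and 49 lower in ArPHR4 than in ArPHR2, where 16.3% of all tested genes were higher and 16.2% lower, 32.5% in all (edgeR, adjusted p under 0.05). The libraries did not overlap in plain CPM for 14 members higher and 49 lower, against 23.3% and 18.9% of all tested genes. The other 8 were not called. The members' median log2 fold change was -0.30, and that of all tested genes 0.00. Changes were mostly small, and at 2-fold or more 0 were higher and 5 lower, against 3.9% and 4.66% of all tested genes. The next abundance classes again had shares of lower calls close to the members' 69.0%, with 65.3% at 500 to under 1000 CPM and 59.4% at 250 to under 500 CPM. Of the 74 genes at or above 1000 CPM in ArPHR2 itself, 68.9% were lower and 21.6% higher in ArPHR4. Of the 61 at or above 1000 CPM in ArPHR4, 55.7% were lower and 32.8% higher. Each of these choices favours the group it was made in.

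The gene that separated the constructs most was TRINITY_DN3378_c0_g1, at EV rank 70. It had 119, 106 and 109 CPM in ArPHR4, 2687, 2670 and 2647 CPM in ArPHR2, and 1027, 1018 and 1022 CPM in EV. ArPHR4 was 24.5-fold lower than ArPHR2, a log2 fold change of -4.61 ± 0.043 (SE, edgeR adjusted p = 4.71e-37). The gene stood at rank 1823 in ArPHR4 and rank 17 in ArPHR2. Its implied length, count over FPKM, was 848 bases in ArPHR4, 1107 bases in ArPHR2 and 1190 bases in EV, the largest ratio of lengths between the constructs among the members. What this does to its level was not tested. It had no partner in its assembly component.

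TRINITY_DN4908_c0_g1, at EV rank 19, had 305, 292 and 322 CPM in ArPHR4, 814, 804 and 793 CPM in ArPHR2, and 2715, 2785 and 2829 CPM in EV. The fall of ArPHR4 against ArPHR2 was -1.42 ± 0.037 on the log2 scale (SE, edgeR adjusted p = 8.43e-25). Its assembly component includes 1 other gene, and for the whole component the log2 ratio on plain CPM was -1.10, against -1.39 for the member. EV rank 51 averaged 480 ± 8.26 CPM in ArPHR4, 1086 ± 4.28 CPM in ArPHR2 and 1274 ± 6.89 CPM in EV (SD, n = 3). All its ArPHR2 libraries lay below those of EV, and its ArPHR4 libraries lay below both. The log2 fold change against EV was -1.51 ± 0.035 in ArPHR4 and -0.30 ± 0.034 in ArPHR2 (SE, edgeR).

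On the rising side the order between the constructs was led by EV rank 15, whose ArPHR4 libraries exceeded the ArPHR2 libraries by 0.81 ± 0.035 on the log2 scale (SE, edgeR adjusted p = 1.01e-18). TRINITY_DN3109_c0_g1, at EV rank 24, had 3655, 3667 and 3617 CPM in ArPHR4, 2264, 2149 and 2269 CPM in ArPHR2, and 2462, 2419 and 2378 CPM in EV. ArPHR4 was higher than ArPHR2 by 0.68 ± 0.035 (edgeR adjusted p = 6.68e-17). EV rank 12 averaged 3275 ± 90.5 CPM in ArPHR4, 2166 ± 104 CPM in ArPHR2 and 3659 ± 166 CPM in EV. It had a lower level than EV in both groups, and the lower of these in ArPHR2.

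**Figure D4:**
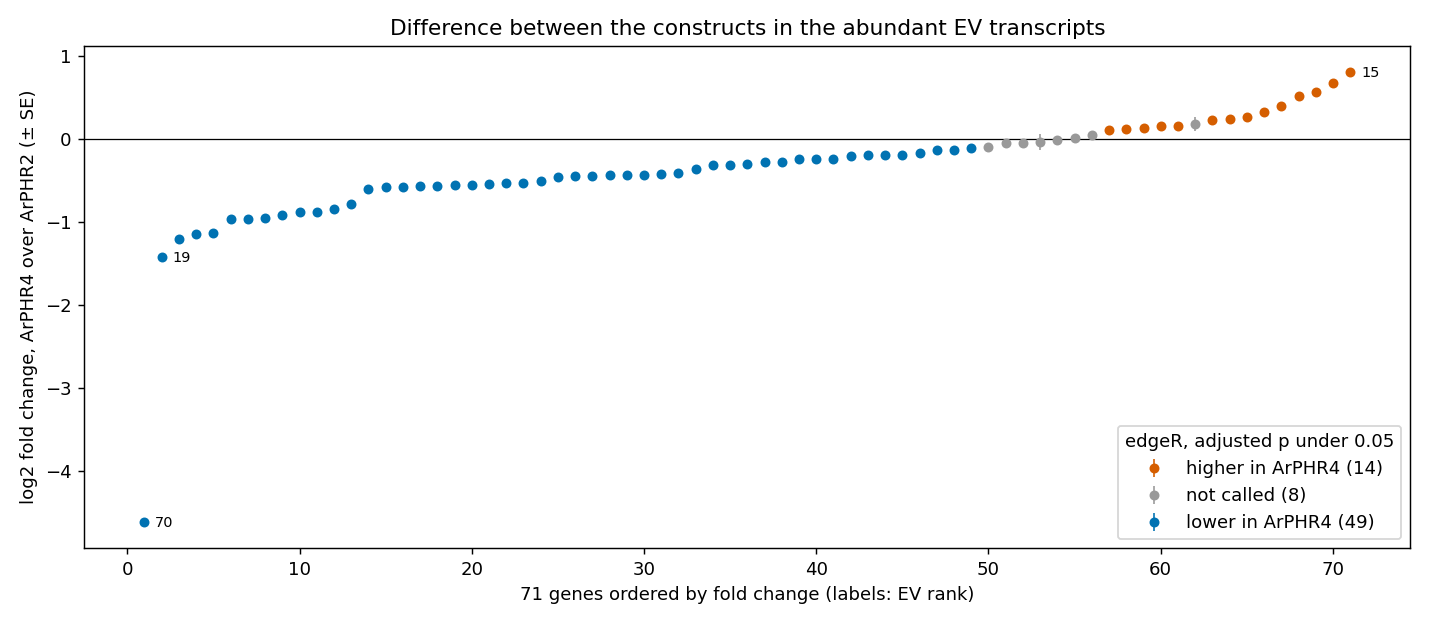
Log2 fold change of ArPHR4 over ArPHR2 with its SE (vertical axis) for the 71 genes, ordered by size (horizontal axis) and coloured by the edgeR call. The 49 genes lower in ArPHR4 lie mostly within 2-fold, EV rank 70 stands apart at -4.61, and EV rank 15 is highest at 0.81.

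In 8 members ArPHR2 and ArPHR4 lay on opposite sides of EV, each called by edgeR. For 2 of them a call against EV was lost under an alternative: EV rank 54 in ArPHR2 without the EV library numbered 2 or 3, without the ArPHR2 library numbered 3 or with limma on FPKM, and EV rank 61 in ArPHR4 with plain library totals or limma on FPKM. The share of all tested genes with calls of opposite sign was not counted. Against EV, 44.3% of all tested genes were called in ArPHR2 and 52.0% in ArPHR4, in either direction. The EV libraries that chose the genes also serve as the control of both calls, so the count of 8 only describes the list. EV ranks 5, 16, 40, 54, 61 and 70 were above EV in ArPHR2 and below it in ArPHR4, while EV ranks 24 and 53 went the other way. EV rank 5 had 6690, 6162 and 6939 CPM in ArPHR2, 5234, 5045 and 4714 CPM in ArPHR4, and 5544, 5255 and 5330 CPM in EV. EV rank 16 averaged 3845 ± 75.8 CPM in ArPHR2, 2711 ± 17.6 CPM in ArPHR4 and 3145 ± 76.8 CPM in EV (SD, n = 3). EV rank 40 averaged 2110 ± 98.1, 1172 ± 42.0 and 1585 ± 67.3 CPM in the same groups. Apart from EV rank 70, the TMM-scaled fold against EV was largest for EV rank 40 and EV rank 24, both in ArPHR4, at 1.45-fold lower and 1.41-fold higher. On plain CPM the ratio of ArPHR4 to EV was 1.51 for EV rank 24. EV rank 53 averaged 1053 ± 51.2, 1541 ± 30.2 and 1245 ± 21.3 CPM. EV rank 54 averaged 1394 ± 36.3, 959 ± 15.4 and 1227 ± 68.2 CPM, and EV rank 61 1600.2 ± 34.3, 1122 ± 12.9 and 1167 ± 27.4 CPM.

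**Figure D5:**
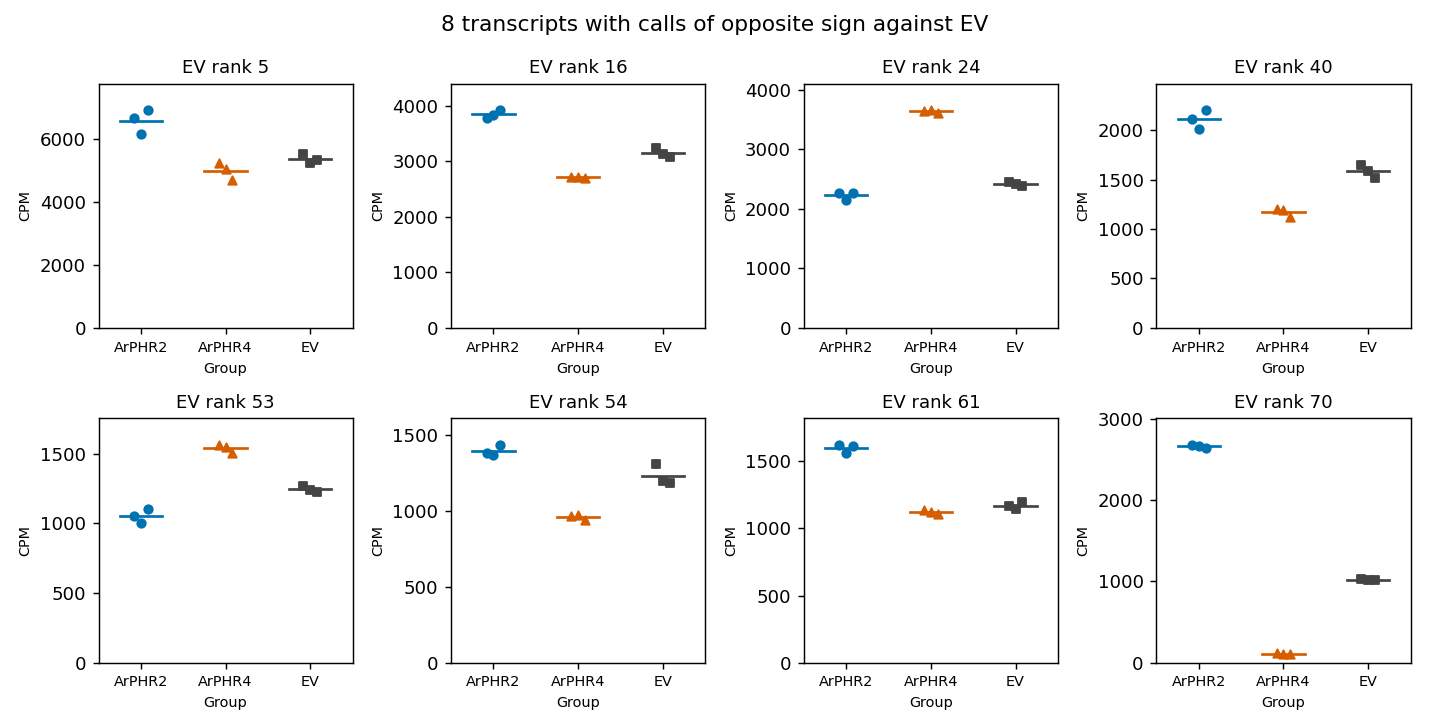
CPM (vertical axis, from 0) in every library of the 8 genes whose calls against EV had opposite signs, with a line for the mean of each group. ArPHR2 is above and ArPHR4 below EV in 6 panels and the reverse holds for EV ranks 24 and 53; EV rank 70 shows 2668, 111 and 1022 CPM in ArPHR2, ArPHR4 and EV.

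Replicates agreed closely for all but a pair of the genes. The median coefficient of variation of a member between libraries was 2.46% in ArPHR2, 2.24% in ArPHR4 and 2.55% in EV, against 12.2%, 12.2% and 11.3% over all tested genes. The tested genes outside the list had lower counts in EV, and counting error is larger at lower counts. Counting error alone was at most 1.91% in ArPHR2, 2.63% in ArPHR4 and 0.786% in EV, at the lowest count of a member. The members' median coefficient of variation lay above this largest counting error in ArPHR2 and EV, and below it in ArPHR4. EV rank 6 had 4093, 4294 and 5618 CPM in ArPHR2, 4579, 3856 and 5498 CPM in ArPHR4, and 4026, 5426 and 5506 CPM in EV. The groups overlapped, and ArPHR4 and ArPHR2 could not be told apart (log2 fold change -0.04 ± 0.096, edgeR adjusted p = 0.788). EV rank 18 had 3525, 3816 and 4553 CPM in ArPHR2, 4169, 4152 and 5508 CPM in ArPHR4, and 2411, 2993 and 3177 CPM in EV. Its overexpression libraries all lay above those of EV, and ArPHR4 and ArPHR2 differed by 0.18 ± 0.082 (edgeR adjusted p = 0.0856).

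In both genes the library numbered 3 was the highest in all 3 groups, as it also was for EV rank 64, whose coefficient of variation was at most 3.35%. Their coefficient of variation was 16.7% to 17.8% for EV rank 6 and 13.4% to 16.9% for EV rank 18, and no other member passed 7.76% in any group. They were among the 4 members with an implied length over 4000 bases, at 4594 and 6288 bases in EV. The other 2, EV ranks 65 and 66, varied by at most 3.43% and 2.59%. What sets the spread of these genes was not tested.

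Per length, the list looked different from the one by CPM. FPKM is the deposited level per transcript length and library depth. By FPKM, 41 of the 71 members were among the 71 highest genes of EV, and the lowest member, EV rank 65 by CPM, stood at rank 995. The implied length of the members in EV had a median of 1317 bases, against 918 bases over all tested genes, and ran from 269 to 6590 bases. First by FPKM in EV was EV rank 2, with 12587 ± 389 FPKM in ArPHR2, 9488 ± 437 FPKM in ArPHR4 and 22377 ± 826 FPKM in EV (SD, n = 3). Its implied length was 414 bases in ArPHR2, 418 bases in ArPHR4 and 349 bases in EV, so its folds in FPKM and in CPM differ. Across members the ratio of implied length to that in EV ran from 0.83 to 1.18 in ArPHR2 and from 0.71 to 1.27 in ArPHR4. First by FPKM in both overexpression groups was EV rank 15, of 417 bases in EV, with 15850 ± 480 FPKM in ArPHR2, 29410 ± 512 FPKM in ArPHR4 and 7646 ± 298 FPKM in EV. The most abundant EV gene by CPM, of 2882 bases in EV, was at FPKM ranks 32, 20 and 9 in ArPHR2, ArPHR4 and EV. As a share of summed FPKM the 71 genes held 12.2% ± 0.242 in ArPHR2, 11.3% ± 0.147 in ArPHR4 and 14.9% ± 0.236 in EV.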

How the data were processed

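The members and lists were chosen with earlier results of these data known. Counts per assembled gene were deposited by the authors as whole numbers, and FPKM values were deposited beside them, per the file headers. Gene IDs start with TRINITY, the naming style of the Trinity assembler. The aligner, counting tool and strand setting were not found in the labels or file headers, so reads of overlapping, antisense or near-identical transcripts cannot be told apart. RNA was taken with a column kit and made into libraries with an mRNA kit, per the labels' protocols. A list of sample names and a table of pairwise values between libraries held no gene levels and were not used for any value.

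CPM in the text is relative to the plain library total. Counts were tested with edgeR 4.0.16 (R 4.3.3): expression filter by group, TMM scaling, 1 quasi-likelihood model of 3 group means over 9 libraries, and Benjamini-Hochberg adjustment over 27275 genes. TMM fold changes lie below ratios of plain CPM by 0.07 (ArPHR2 against EV), 0.10 (ArPHR4 against EV) and 0.03 (ArPHR4 against ArPHR2) on the log2 scale. The SE is the log2 fold change divided by the square root of F. Implied length is count over FPKM scaled by the library total. Before use, the fit was tested on simulated data with known changes. Alternatives used DESeq2 1.42.0, limma 3.58.1 on log2(FPKM + 1), other scalings and member rules, and leaving out libraries. No p is given for the share of the library or for comparisons of single members with EV. Genes described were EV ranks 1 to 10, the 3 largest rises and falls per comparison, the 3 genes on either side of the threshold, the first gene of each group and members called oppositely. Lists of named genes could not be applied.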

Additional observations from a re-analysis of the deposited data

Results flagged for a closer look

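For 8 members the calls of the constructs against EV had opposite signs. The direct test of ArPHR4 against ArPHR2 passed in each (edgeR, adjusted p under 0.05). These genes were picked by opposite calls in the same fit. A pass, and libraries that do not overlap, were therefore nearly fixed in advance and add no support. The share of all tested genes with opposite calls was not counted. ArPHR4 was lower than ArPHR2, as log2 fold change, by -0.43 for EV rank 5, -0.54 for EV rank 16, -0.88 for EV rank 40, -0.57 for EV rank 54, -0.54 for EV rank 61 and -4.61 for EV rank 70. ArPHR4 was higher by 0.68 for EV rank 24 and by 0.52 for EV rank 53. In each of the 8 genes all 3 libraries of ArPHR4 lay on the same side of all 3 of ArPHR2. The call of EV rank 54 against EV in ArPHR2 was lost without the EV library numbered 2, without the EV library numbered 3, without the ArPHR2 library numbered 3 and with limma on FPKM. The call of EV rank 61 against EV in ArPHR4 was lost with plain library totals and with limma on FPKM.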

How the results depend on the processing

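The counts of members called stayed within 1.5 times under RLE, upper-quartile and plain scaling, no filter, DESeq2, limma on log2(FPKM + 1), fits of the 2 groups alone and every left-out library. Over left-out libraries, members called higher and lower numbered 18 to 21 and 45 to 48 in ArPHR2 against EV, 12 to 14 and 53 to 55 in ArPHR4 against EV, and 12 to 15 and 48 to 50 in ArPHR4 against ArPHR2. A replicate block gave 20 and 47, 14 and 55, and 15 and 49. Libraries with the same number deviated together weakly, with r of 0.011 to 0.059 across genes, against -0.056 to 0.031 for different numbers. In 13 of 18 comparisons r was highest for the own number. The main fit had no replicate block, and whether the numbers pair the libraries was not settled. At 2-fold or more, the counts in the same order were 5 and 17, 1 and 28, and 0 and 5. With the threshold at 500 CPM (195 genes) they were 51 and 114, 40 and 141, and 35 and 130. At 2000 CPM (33 genes) they were 8 and 21, 6 and 25, and 8 and 22. Members chosen over all 9 libraries gave 32 and 28, 27 and 36, and 15 and 45. With that choice, lower calls did not outnumber higher ones in ArPHR2 against EV. What the excess of lower calls rests on was not tested.

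The share of the library was 12.5% in ArPHR4 and 18.5% in EV on TMM-scaled sizes, and 12.2%, 11.3% and 14.9% in ArPHR2, ArPHR4 and EV by FPKM. Without single libraries, ArPHR4 minus ArPHR2 was -1.60 to -1.24 percentage points. The median log2 fold change of members in ArPHR4 against EV was -0.87 with upper-quartile scaling, -0.72 with plain totals, -0.67 with limma, and -0.83 to -0.79 without single libraries. For ArPHR4 against ArPHR2 it was -0.31 with RLE, -0.35 with upper quartile, -0.27 with plain totals, -0.23 with limma, and -0.33 to -0.27 without single libraries. For ArPHR2 against EV it was -0.40 to -0.34 without single libraries. Changes of sign were confined, among the named genes, to differences near 0: EV rank 4 in ArPHR2 against EV (0.0044 with plain totals), and EV rank 6 in ArPHR4 against ArPHR2 (0.018 with limma, 0.066 to 0.12 without the ArPHR4 library numbered 2 or the ArPHR2 library numbered 3, with -0.18 as the lowest value without another library). The cause was not tested.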
